A study of Homo sapiens with 4 samples.

Results

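Variation among the 3 knockdown libraries of OVCAR3 cells carrying a hairpin RNA against ANAPC1P2 is described here, gene by gene. The libraries are labelled Set 1, Set 2 and Set 3, with 1 library each. The genes were chosen by level alone: 14440 of the 62696 genes in the files had a mean of at least 50 normalized read counts over the 3 libraries. Of these, 12226 are protein-coding and 2214 are of other types. LRRC19 (mean 49.98) and PODNL1 (49.97) lay just outside this limit, and ENSG00000249216 (50.03), DNAJB7 (50.04) and CLUL1 (50.04) just inside it.

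OVCAR3, an established line of ovarian cancer cells, is widely used as a model of serous carcinoma. All 3 sets are, per the labels, OVCAR3 cells with the genotype ANAPC1P2 KD, made with a short hairpin RNA (shRNA) and grown in RPMI medium with fetal bovine serum, and the labels give no treatment and no time. A single wild-type OVCAR3 library was sequenced with them and enters no comparison below. The labels do not say whether the sets were separate cultures, separate hairpins, separate clones or repeats of 1 preparation. A difference between sets therefore compares 3 libraries, without a replicate check and without a p-value, and the source of a set cannot be told apart from its library preparation.

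A pseudogene is a copy of a gene that has usually lost the ability to make the protein, and its transcript can be targeted by a hairpin like any other RNA. The parent of ANAPC1P2 is ANAPC1, the gene for a large scaffold subunit of the APC/C. This complex attaches ubiquitin to cyclins and other proteins and so drives cells out of mitosis. Total RNA depleted of ribosomal RNA, as sequenced here, holds unspliced RNA, nuclear long noncoding RNA and small structured RNA next to mature mRNA.

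ANAPC1P2 itself (ENSG00000285793) was rare. It had 0, 11 and 8 reads in sets 1, 2 and 3, or 0, 8.55 and 8.89 normalized counts. The wild-type library, of a lower depth (27868718 reads), had 14 reads or 15.55 normalized counts. The transcript thus had no read in set 1 only, a count that allows up to 3 reads at that depth, and it lay far below the level limit in all 3 sets. A further identifier of the same name (ENSG00000231259) had no read. The parent gene ANAPC1 stood at 8033, 7825 and 8540 normalized counts, so its highest set was 1.09-fold above its lowest (99.9% counting interval 1.04 to 1.15). Counting can split or drop reads that match both ANAPC1 and its close copies, so these values are uncertain.

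The libraries held 42871815 to 56216398 counted reads, of which 99.5% to 99.6% fell in the genes described here. Each of these genes had at least 6 reads in every set. Markers of serous ovarian carcinoma summed to between 273540 and 298100 normalized counts over 28 genes. Of 13 erythroid markers 8 had no read in any set, the globin genes HBB, HBA1 and HBA2 among them, and the list summed to 25.6 to 53.6. Of 17 leukocyte markers 6 had no read, among them LYZ and CD68, and the list summed to 160.1 to 182.9.

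A gene was called different between sets when its highest set was at least 1.5-fold above its lowest and the exact 99.9% counting interval of that ratio excluded 1. By this rule 745 genes, 5.16% of those examined, differed. Between pairs of sets alone, 420 genes differed between sets 2 and 3 (set 1 left out), 309 between sets 1 and 3 (set 2 left out) and 259 between sets 1 and 2 (set 3 left out). For 7303 genes (50.6%) the interval alone excluded 1, so for many genes the sets differed by more than counting noise but by small factors. With set 2 left out that count was 3794, with set 3 left out 4299 and with set 1 left out 5082. The median gene had a highest set 1.16-fold above its lowest, and the 99th percentile was 2.17-fold. Differences of at least 2-fold were called for 229 genes, 96 of them protein-coding, and of at least 3-fold for 12. After counting variance was subtracted, the coefficient of variation between sets had a median of 6.86% over all genes, 6.56% over protein-coding genes and 11.5% over other types.

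Calls were commoner among low genes. Among protein-coding genes 16.7% differed at a mean of 50 to 100 normalized counts, 4.38% at 200 to 500 and 0.434% at 500 or more. Noncoding and other types differed more often within each of these bands, at 19.5%, 12.7% and 5.78%. Over all levels, 370 protein-coding genes (3.03%) and 375 genes of other types (16.9%) differed. Shares of gene lists set beside the 5.16% of all genes below were not matched for level. Counts of the highest or lowest set, given beside those of all protein-coding genes, were not matched for level or length either.

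The sets did not contribute equally. Of the 745 genes, 262 had their highest value in set 2 and their lowest in set 3, the commonest of the 6 possible orders. Set 3 was lowest in 366 of them and set 2 highest in 359. A gene was called high or low in 1 set when that set was at least 1.5-fold from the nearer of the other sets and the interval of that ratio excluded 1. High in 1 set were 25 genes (0.173%) for set 1, 51 (0.353%) for set 2 and 29 (0.201%) for set 3. Low in 1 set were 24 genes (0.166%) for set 1, 24 (0.166%) for set 2 and 90 (0.623%) for set 3. Of the 90 low in set 3, 63 were not protein-coding, while of the 29 high in set 3, 24 were protein-coding. With equal library totals in place of the deposited scaling, the count low in set 3 was 136 and that high in set 3 was 15, while 99 genes were high in set 2.

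**Figure D1:**
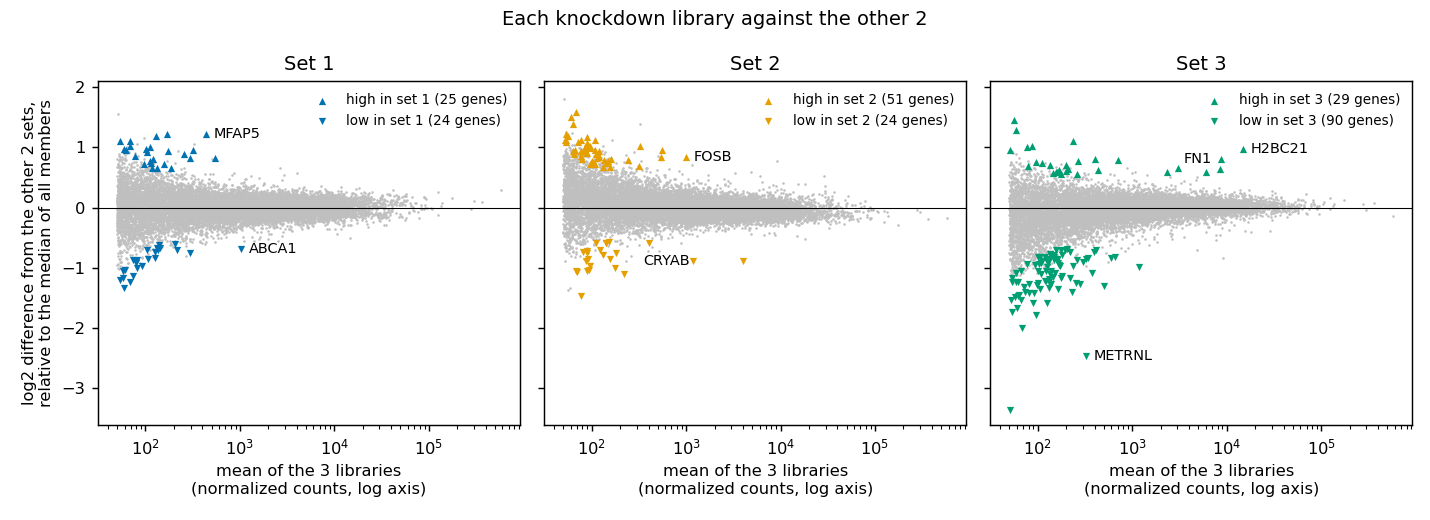
Log2 difference of each set from the mean of the other 2, less the median of all 14440 genes, against the mean of the 3 libraries in normalized counts (log axis). Grey points are genes, and coloured triangles are genes high (up) or low (down) in that set. METRNL lies far below the other labelled genes in set 3, and most triangles lie at low means.

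Small structured RNAs held a large share of differing genes. Of 32 small nuclear RNAs (snRNAs), which build the spliceosome, 14 differed (43.75%). Of 37 small nucleolar RNAs (snoRNAs), which guide chemical modification of other RNAs, 14 differed (37.84%). Over all genes, with a median level of 1045 normalized counts, 5.16% differed. The snRNAs and snoRNAs had lower median levels, 174.8 and 221.1. At a mean of 100 to 200, 16.5% of protein-coding genes and 21.3% of other types differed. At 200 to 500 these shares were 4.38% and 12.7%. Relative to the median of all genes, the snRNA medians were 0.31, -0.32 and 0.07 on the log2 scale in sets 1, 2 and 3, and the snoRNA medians 0.24, -0.32 and -0.03. Set 2 was the lowest set for 26 of 32 snRNAs and 30 of 37 snoRNAs. It was the lowest set for 6258 of 12226 protein-coding genes. Under 3 other scalings these counts were 24 to 25, 27 to 29 and 3416 to 5296. Among 251 groups of genes whose symbols share their opening letters, with at least 8 genes each, RNU (10 of 20), SNORD (5 of 12) and SNORA (8 of 21) had the highest shares, and 162 groups had no differing gene.

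The U4 and U5 snRNAs are given as single examples. Over all 32 snRNAs, set 1 was the highest set for 19 and set 3 for 11, so examples highest in set 3 do not stand for the group. U4 pairs with U6 in the spliceosome and U5 contacts the exons being joined. RNU4-2 (chromosome 12, 120291763 to 120291903, minus strand) stood at 7409, 6663 and 11601 normalized counts in sets 1, 2 and 3, so set 3 was 1.57-fold above set 1 (99.9% counting interval 1.49 to 1.65). Its neighbour RNU4-1 stood at 4409, 3750 and 5869, in the same order. RNU5A-1 stood at 222.7, 211.4 and 338, with set 3 highest. RNU5B-1 stood at 68.2, 31.9 and 56.7. Sets 1 and 3 of RNU5B-1 and sets 1 and 2 of RNU5A-1 lay close together for such counts. These values therefore do not show whether the U5 copies differed in their highest or lowest set. The sequences of the U4 copies are shown because they are so alike that reads can be assigned to either. They come from GENCODE 29 transcripts on GRCh38, and capitals mark the 4 positions that differ.
RNU4-1: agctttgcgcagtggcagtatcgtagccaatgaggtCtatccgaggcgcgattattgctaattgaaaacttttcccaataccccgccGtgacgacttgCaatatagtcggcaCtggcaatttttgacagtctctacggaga
RNU4-2: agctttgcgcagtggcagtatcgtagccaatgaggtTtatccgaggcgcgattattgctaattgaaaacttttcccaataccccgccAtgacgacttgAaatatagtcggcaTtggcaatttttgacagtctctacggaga

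The 141 bases of the U4 copies are shorter than most transcripts of the files. Over genes of all types with under 300 exonic bases, 37 of 118 differed (31.36%), with relative medians of 0.22, -0.20 and -0.06 in sets 1, 2 and 3. The snRNAs, snoRNAs and small Cajal body RNAs (scaRNAs) together number 73, of which 28 differed. Short genes and these types thus share members, so the 2 results are not separate. The part of short length in the snRNA and snoRNA result was not tested. With equal library totals RNU4-1 and RNU5A-1 came to 1.43-fold and 1.47-fold and lost their calls. RNU4-1 also lost its call with TMM scaling, at 1.485-fold (edgeR's trimmed mean of M values).

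Box H/ACA snoRNAs, which guide pseudouridylation, were among those that differed. SNORA74A stood at 316.6, 118.9 and 227.9 normalized counts, and set 2 was 1.92-fold below set 3, the nearer set (99.9% counting interval 1.34 to 2.75). SNORA53 (chromosome 12, 98599635 to 98599883) stood at 368.7, 164 and 242.4, with set 1 1.52-fold above set 3. SNORA23, which was picked after its values were seen, stood at 709.9, 339.6 and 482.5. All 3 had the order set 1, set 3, set 2. The GENCODE 29 sequences of SNORA53 and SNORA23 are shown for the feature they share, an ACA (in capitals) within the last 8 bases of the 3′ end.
SNORA53: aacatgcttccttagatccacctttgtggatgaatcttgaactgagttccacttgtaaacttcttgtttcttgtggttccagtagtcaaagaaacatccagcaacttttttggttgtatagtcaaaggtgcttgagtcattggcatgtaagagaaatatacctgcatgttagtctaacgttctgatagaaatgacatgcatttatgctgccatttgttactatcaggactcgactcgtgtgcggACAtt
SNORA23: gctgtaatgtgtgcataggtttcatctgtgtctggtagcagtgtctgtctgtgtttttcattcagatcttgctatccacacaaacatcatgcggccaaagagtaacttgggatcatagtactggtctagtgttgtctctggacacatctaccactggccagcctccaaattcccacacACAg

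In a list of abundant structured and nuclear RNAs, 6 of 21 genes differed (28.57%), against 5.16% of all genes. Set 2 was the lowest set for 21 of 21 (20 with equal totals). RNU4ATAC, an snRNA of the minor spliceosome, stood at 488.1, 366 and 564.8, and RNY3, a Y RNA of the Ro particle, at 153.5, 135.2 and 204.6. Both lost their calls with equal totals, median-of-ratios and TMM scaling, at 1.39-fold to 1.49-fold. The signal recognition particle RNA RN7SL1 stood at 187227, 149232 and 191286 and was not called. MIR5087, a microRNA precursor, stood at 472, 292.2 and 448, and set 2 was 1.53-fold below the nearer set. The reads of such a library count the precursor and anything else at that position, not the mature microRNA. Its highest over lowest ratio of 1.62 became 1.498, and the call was lost, when values were corrected for GC content and length, an alternative added after the data were seen.

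Mitochondrial ribosomal RNA, which the kit is meant to deplete with the other ribosomal RNA, was looked at after its values were seen. MT-RNR1 stood at 45.5, 24.1 and 97.8 normalized counts, a 4.06-fold range. MT-RNR2 stood at 132.7, 85.5 and 177.9, a 2.08-fold range. Both were highest in set 3 and lowest in set 2. Of the 13 mRNAs of the mitochondrial genome, 0 differed by the same rule. Their median level was 7702, and 0.434% of protein-coding genes with a mean of at least 500 were called, so this count was near that background. Set 2 was the lowest set for 10 of these 13, against 6258 of all 12226 protein-coding genes. Under the other scalings it was lowest for 6 to 10 of them, against 3416 to 5296 of all.

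Among the genes high in set 3 with a mean of at least 200 were FN1, ITGB3, CLDN1, CLDN16 and MMP7. FN1, which encodes the matrix protein fibronectin (chromosome 2, 215360440 to 215436172), stood at 7123, 6644 and 12647 normalized counts in sets 1, 2 and 3. Sets 1 and 2 were close together, and set 3 was 1.78-fold above set 1 (99.9% counting interval 1.69 to 1.87). ITGB3, the integrin beta-3 subunit and a receptor for fibronectin, stood at 2482, 2491 and 4118, or 1.65-fold above the nearer set (1.53 to 1.79). The tight junction genes CLDN1 and CLDN16 are neighbours on chromosome 3 (190305701 to 190322475 and 190322541 to 190412143). CLDN1 stood at 5076, 4966 and 7922 and CLDN16 at 1927, 1932 and 3062, so both had nearly the same level in sets 1 and 2. CLDN1 lost its call with equal library totals, at 1.46-fold between its highest and lowest set. Whether each of these genes stayed high in set 3 was not checked gene by gene. With equal library totals the number of genes high in set 3 went from 29 to 15. MMP7, the protease matrilysin, stood at 341.2, 371.4 and 580.3, again highest in set 3.

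Matrix genes with lower counts, named after their values were seen, went both ways in set 3. The gelatinase gene MMP2 stood at 53.1, 59.1 and 120.1, the type VII collagen gene COL7A1 at 180.1, 160.9 and 280.2, and SPP1, the matrix phosphoprotein osteopontin, at 170.6, 163.2 and 269. Sets 1 and 2 lay close together for each of these 3, and set 3 was highest. The matrix genes ECM2, at 65.4, 66.1 and 23.4, and COL10A1, which encodes type X collagen, at 134.6, 157 and 73.4, were low in set 3. Of 23 genes with symbols that open with COL, 1 was high and 1 low in set 3, with a relative median of -0.04. In a list of mesenchymal and matrix genes 4 of 28 differed (14.29%), against 5.16% of all genes. Of these 4, 3 were high in set 3 and 1, MFAP5, was high in set 1. The relative medians of the list were -0.15, 0.03 and 0.06, so the rest of its genes did not stand out in set 3. In the list of epithelial and tight junction genes 3 of 33 differed (9.091%), CLDN1 and CLDN16 high in set 3 and KRT17 high in set 1, with a relative median of 0.09 in set 3. Set 3 was the highest set for 25 of these 33 genes, against 6743 of all 12226 protein-coding genes. Under the other scalings it was highest for 17 to 20 of them, against 3446 to 5147 of all.

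The highest gene by level among those that stood apart was H2BC21, which encodes a histone H2B. It stood at 10976, 10837 and 22522 normalized counts, with sets 1 and 2 nearly equal and set 3 2.05-fold above set 1 (99.9% counting interval 1.98 to 2.13). H2AC11, which encodes a histone H2A, stood at 5019, 2484 and 4615, and set 2 was 1.86-fold below set 3 (1.72 to 2.01). H4C12 stood at 256.9, 209.8 and 334.6, with set 3 highest, and lost its call with equal totals (1.46-fold). These were the 3 of 44 replication-dependent histone genes that differed (6.818%, against 5.16% of all genes). H2BC21 and H4C12 had the order set 3, set 1, set 2, and H2AC11 the order set 1, set 3, set 2. Over the list the relative medians were 0.18, -0.15 and -0.02, and set 2 was the lowest set for 38 of 44 genes, against 6258 of all 12226 protein-coding genes. Under the other scalings it was lowest for 27 to 37 of the 44, against 3416 to 5296 of all. Histone genes are short, close copies of each other, so reads can be shared among them.

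Other genes high in set 3 had varied roles. TAPBP, which encodes tapasin, a chaperone that loads peptides onto class I HLA molecules, stood at 561.1, 550.2 and 1011, or 1.80-fold above the nearer set (99.9% counting interval 1.51 to 2.15). LIX1 stood at 192.4, 137.5 and 371.3 and CYFIP2, a subunit of the actin-regulating WAVE complex, at 188.6, 231.6 and 376.9. EPGN, the growth factor epigen, stood at 139.3, 178 and 272.4. The vasoactive peptide gene EDN1 stood at 123.2, 139.9 and 194.6 and differed without a set of its own. In each of these 5 genes set 3 was highest. Of 13 HLA and antigen presentation genes, TAPBP and 1 other differed (15.38%), against 5.16% of all genes. The relative median of these 13 genes in set 3 was 0.05. Inflammatory cytokines and other NF-kB targets had a relative median of 0.11 in set 3 and -0.13 in set 2, and 2 of 23 differed (8.696%).

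The largest difference of a gene with a mean of at least 200 was that of METRNL (chromosome 17, 83079691 to 83095119), which encodes a secreted meteorin-like protein. It had 442, 613 and 76 reads, or 418.9, 476.4 and 84.5 normalized counts. Sets 1 and 2 were alike, and set 3 was 4.96-fold below set 1 (99.9% counting interval 3.33 to 7.67). Of the 6 other examined genes within 500000 bases of METRNL, none was called, and the widest range among them was 1.39-fold (FN3K, at 119.4, 165.5 and 144.5). TBCD, in the same region, stood at 1314, 1267 and 1339.

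Other protein-coding genes low in set 3 had smaller differences. FILIP1L, which encodes a protein related to filamin A interacting protein, stood at 323.2, 303.1 and 137.9, or 2.20-fold below the nearer set (99.9% counting interval 1.57 to 3.13). NEB, the muscle thin-filament gene nebulin, stood at 265.4, 266.5 and 124.5, or 2.13-fold below (1.48 to 3.13). The melanocyte marker MLANA stood at 145, 145.3 and 82.3. It was the only 1 of 5 examined neural and melanocyte markers that differed, and the 18 listed markers together summed to 7112, 7538 and 7868, highest in set 3. For FILIP1L, NEB and MLANA sets 1 and 2 lay close together. The glutathione-degrading enzyme gene CHAC1, a target of ATF4 named after its values were seen, stood at 231.3, 172.5 and 106.7. It was the only 1 of 27 genes of the ATF4 and amino acid response list that differed (3.704%, against 5.16% of all genes). The lowest set 3 value of all was that of ENSG00000287153, a gene not found in GENCODE 29 and named after its values were seen, with 70.1, 76.9 and 6.67 normalized counts.

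**Figure D2:**
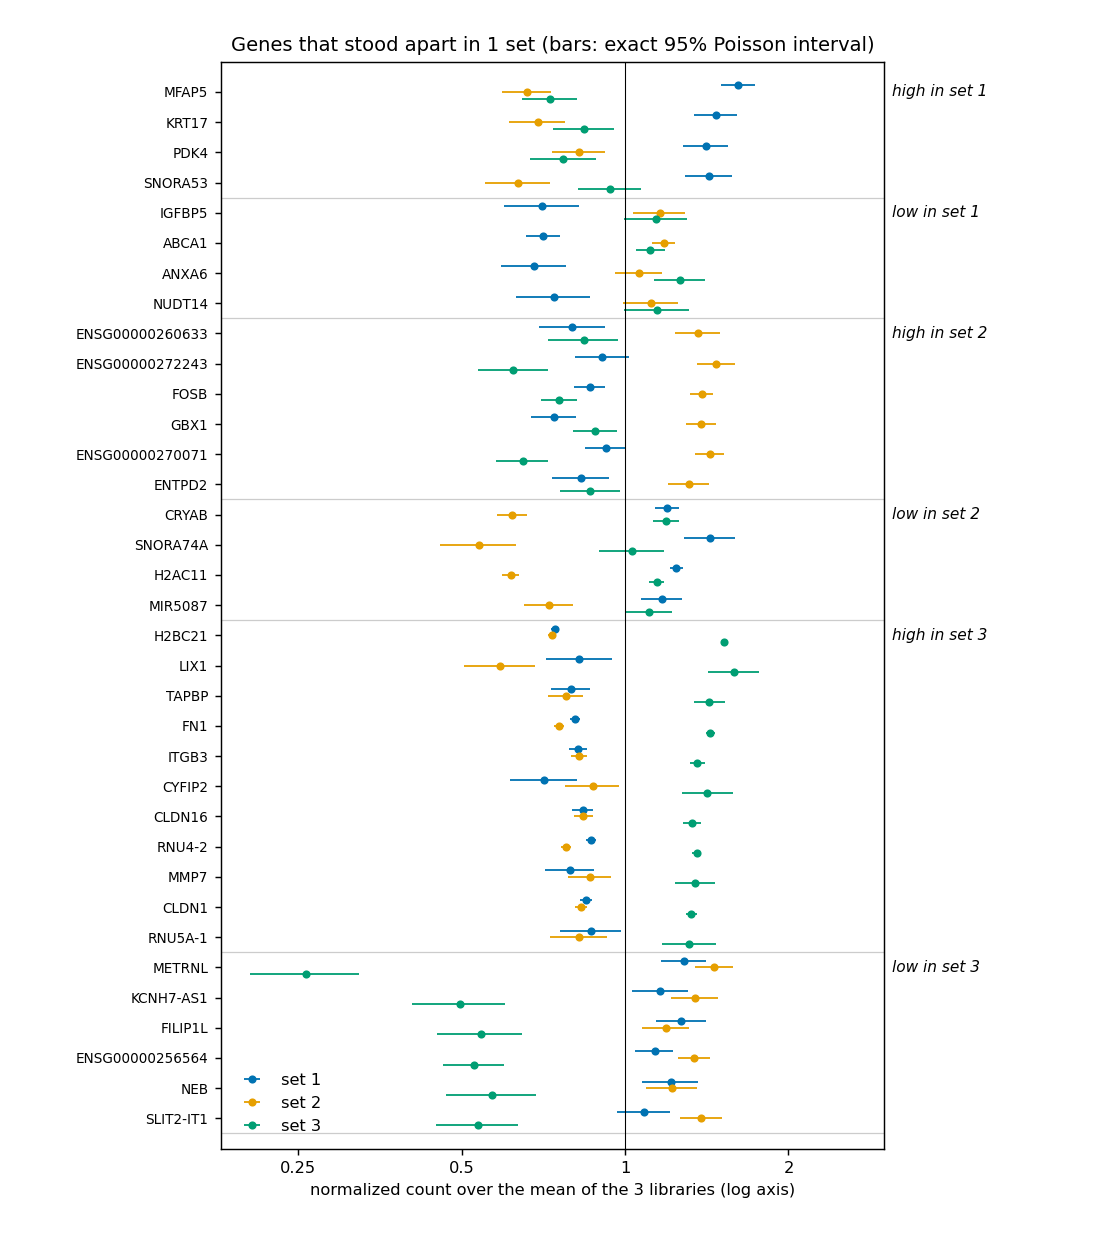
Normalized count of each set over the mean of the 3 libraries (log axis). The genes are those named by rule with a mean of at least 200 that were high or low in 1 set. Genes named after their values were seen are not drawn. Bars are exact 95% Poisson intervals of the read count in that library, which cover counting error only. METRNL in set 3 lies furthest from 1, and in each row 1 set stands apart from both others.

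The genes named as high in set 1 had varied roles. MFAP5, a microfibril-associated glycoprotein (chromosome 12, 8637346 to 8662888), stood at 705.2, 288.3 and 318, and set 1 was 2.22-fold above set 3 (99.9% counting interval 1.77 to 2.81). KRT17, a basal keratin with near-identical pseudogene copies, stood at 468.2, 219.9 and 267.9. PDK4, a kinase that holds pyruvate back from oxidation, stood at 413.2, 240.9 and 225.7. ANGPTL4, a secreted lipase inhibitor that like PDK4 is a target of the PPAR receptors, stood at 270.1, 125.9 and 105.6 and is named after its values were seen. ANKRD30B, from the list of cancer-testis antigens (1 of 7 genes differed), stood at 166.8, 87.8 and 103.4. In each of these genes sets 2 and 3 lay closer to each other than either did to set 1.

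Genes low in set 1 were fewer at this level. ABCA1, the transporter that exports cholesterol from cells, stood at 733.6, 1223 and 1156, and set 1 was 1.58-fold below set 3 (99.9% counting interval 1.35 to 1.85). IGFBP5, which binds insulin-like growth factors, stood at 152.6, 251 and 246.8. ANXA6, a membrane-binding annexin, stood at 199, 310.1 and 369.1. NUDT14, a sugar-nucleotide hydrolase, stood at 153.5, 231.6 and 237.9 and lost its call with equal totals and with TMM scaling (1.49-fold and 1.498-fold). The endothelial marker KDR, a receptor for VEGF, stood at 55.0, 97.1 and 122.3. It was the only 1 of 5 examined endothelial markers that differed, and the 11 listed markers together summed to 1294, 1216 and 1497.

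Among genes high in set 2, FOSB was the highest by level. This subunit of the transcription factor AP-1 is made within minutes of a growth stimulus. It stood at 852.1, 1369 and 747.1, and set 2 was 1.61-fold above set 1 (99.9% counting interval 1.40 to 1.84). NR4A1, another immediate early transcription factor, stood at 922.2, 1107 and 669.3, also highest in set 2 and lowest in set 3. In the list of immediate early genes 4 of 29 differed (13.79%), against 5.16% of all genes. The relative medians of the list were -0.03, 0.17 and -0.13. FOS stood at 5947, 7437 and 5590 and EGR1 at 15196, 17906 and 13292. Neither was called, and both had set 2 highest and set 3 lowest. Set 2 was the highest set for 15 of the 29 genes, against 2141 of all 12226 protein-coding genes. Under the other scalings it was highest for 17 to 21 of them, against 3097 to 5041 of all.

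Genes of feedback on the ERK pathway, which relays growth factor signals, were mixed. ETV5, a transcription factor induced by ERK, stood at 100.5, 183.4 and 121.2 and was high in set 2. PTPRR, a phosphatase that acts on ERK, stood at 3514, 2351 and 2101, with set 1 highest. DUSP6, an ERK phosphatase, stood at 282.4, 313.9 and 255.7 and was not called. ETV5 and PTPRR were the 2 of 16 genes in this list that differed (12.5%), against 5.16% of all genes. The relative medians of the list were -0.06, 0.16 and -0.05.

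Other genes high in set 2 were the homeobox gene GBX1, at 403.8, 753.8 and 481.4, and ENTPD2, an enzyme that breaks down extracellular ATP, at 261.6, 413.4 and 272.4. Long intergenic noncoding RNAs were there too. ENSG00000272243 stood at 293.8, 475.6 and 201.2, and ENSG00000270071 at 506.1, 788 and 355.8, each lowest in set 3. ENSG00000260633 stood at 192.4, 327.9 and 202.3, with sets 1 and 3 alike. SFRP2, a secreted inhibitor of Wnt signalling in the list of fibroblast markers, stood at 187.7, 324.8 and 237.9. It was the only 1 of 3 examined fibroblast markers that differed.

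Among genes low in set 2 with a mean of at least 200, CRYAB, the small heat shock protein alpha-B crystallin, had the largest ratio to the nearer set. It stood at 1399, 725 and 1393, so sets 1 and 3 were nearly equal and set 2 was 1.92-fold below them (99.9% counting interval 1.67 to 2.22). Of 22 heat shock and chaperonin genes only CRYAB differed (4.545%, against 5.16% of all genes). Set 2 was the lowest set for 20 of these 22, against 6258 of all 12226 protein-coding genes. Under the other scalings it was lowest for 16 to 20 of them, against 3416 to 5296 of all. The metallothionein gene MT1M, named after its values were seen, stood at 105.2, 33.4 and 92.3. KRT5, the basal keratin that pairs with KRT14 and was also named afterwards, stood at 187.7, 101 and 241.2. Set 2 was lowest in all 3 genes.

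Interferon-stimulated genes showed no single order. Set 3 was the lowest set for 18 of the 40 and sets 1 and 2 for 11 each. Of all 12226 protein-coding genes, 1811 were lowest in set 3. Under the other scalings set 3 was lowest for 19 to 22 of the 40, against 2678 to 3948 of all. Of 40 genes 4 differed (10%), against 5.16% of all genes. The relative medians of the list were 0.07, 0.07 and -0.10. DDX58, the RNA sensor RIG-I, stood at 239.8, 199.7 and 137.9. IFI27, a mitochondrial interferon-induced protein, stood at 112.8, 125.9 and 71.2, and the chemokine gene CXCL10 at 134.6, 82.4 and 113.4. Set 3 was lowest for the first 2 and set 2 for CXCL10. IFIT1, at 537.4, 508.2 and 410.2, was not called. In the list of growth factors and receptors 3 of 25 differed (12%), EPGN, EDN1 and IGFBP5, each lowest in set 1.

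Lists of cell division and protein production hold mostly genes of high level, at which calls are rare: 0.434% of protein-coding genes with a mean of at least 500 were called. Of 35 genes for G1/S and DNA replication, 19 of the APC/C and its coactivators, 74 cytosolic ribosomal proteins, 52 nuclear-encoded respiratory chain subunits and 31 proteasome subunits, 0 were called in each list, a count near that background. Of 38 genes for G2/M and mitosis 1 was called. Ribosomal protein genes had relative medians of 0.13, -0.12 and -0.02. Set 2 was the lowest set for 73 of 74, against 6258 of all 12226 protein-coding genes. That count was 51 to 67 under the other scalings, against 3416 to 5296 of all. The large-subunit gene RPL3, for example, stood at 45935, 41834 and 45268. With the deposited scaling set 2 was also lowest for 32 of 38 G2/M, 30 of 35 G1/S and 12 of 19 APC/C genes. For respiratory chain and proteasome subunits the counts were 40 of 52 and 28 of 31. With equal totals these counts were 23, 14, 8, 25 and 22. The relative median of set 2 was -0.04 in the quintile of protein-coding genes highest by level and 0.08 in the lowest.

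No gene was called either in the lists of the unfolded protein response (21 genes), p53 targets (19), NRF2 targets (27), the S100 family (11), the TGF-beta pathway (25) or the HOX clusters (20). Median levels lay above 500 except in the HOX list (228.6). Of protein-coding genes 0.434% were called at a mean of at least 500 and 4.38% at 200 to 500. Counts of 0 in lists of this size are near those shares. Genes of cholesterol synthesis and other SREBP targets had a relative median of 0.13 in set 3, which was the highest set for 27 of 30, against 6743 of all 12226 protein-coding genes. Under the other scalings it was highest for 19 to 22 of the 30, against 3446 to 5147 of all. Of this list SCD, the fatty acid desaturase, was called, at 671.1, 755.3 and 1025. HMGCS1, which makes the sterol precursor HMG-CoA, stood at 3860, 3488 and 4289 and was not. Of 13 genes of the RNA interference machinery, through which a hairpin acts, 1 differed. DICER1, which processes hairpins, stood at 11889, 11780 and 11831, and AGO2, the slicing Argonaute, at 8795, 8798 and 8779.

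Long noncoding RNAs and RNAs that overlap protein-coding genes had medians below 0 in set 3 and above 0 in set 2, as did low protein-coding genes. Protein-coding genes with a mean of 50 to 100 had relative medians of -0.02, 0.15 and -0.11 in sets 1, 2 and 3, and those with a mean of 100 to 200 had 0.01, 0.06 and -0.06. Antisense genes and intergenic long noncoding RNAs had median levels of 119.3 and 123.9 normalized counts. At a mean of 100 to 200, 16.5% of protein-coding genes and 21.3% of other types differed, shares that neither of these groups exceeded. Antisense genes differed in 101 of 649 cases (15.56%), with relative medians of 0.02, 0.15 and -0.14 in sets 1, 2 and 3. Intergenic long noncoding RNAs differed in 67 of 475 (14.11%), with medians of 0.06, 0.13 and -0.15. The medians were wider for sense intronic genes (15 of 80 differed, at -0.02, 0.20 and -0.28) and for genes annotated as TEC, still to be experimentally checked (22 of 86, at 0.00076, 0.27 and -0.28). MALAT1 and NEAT1, abundant nuclear RNAs of speckles and paraspeckles, stood at 1264, 1382 and 928.3 and at 17876, 20674 and 15229. Neither was called, and both had set 2 highest and set 3 lowest.

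**Figure D3:**
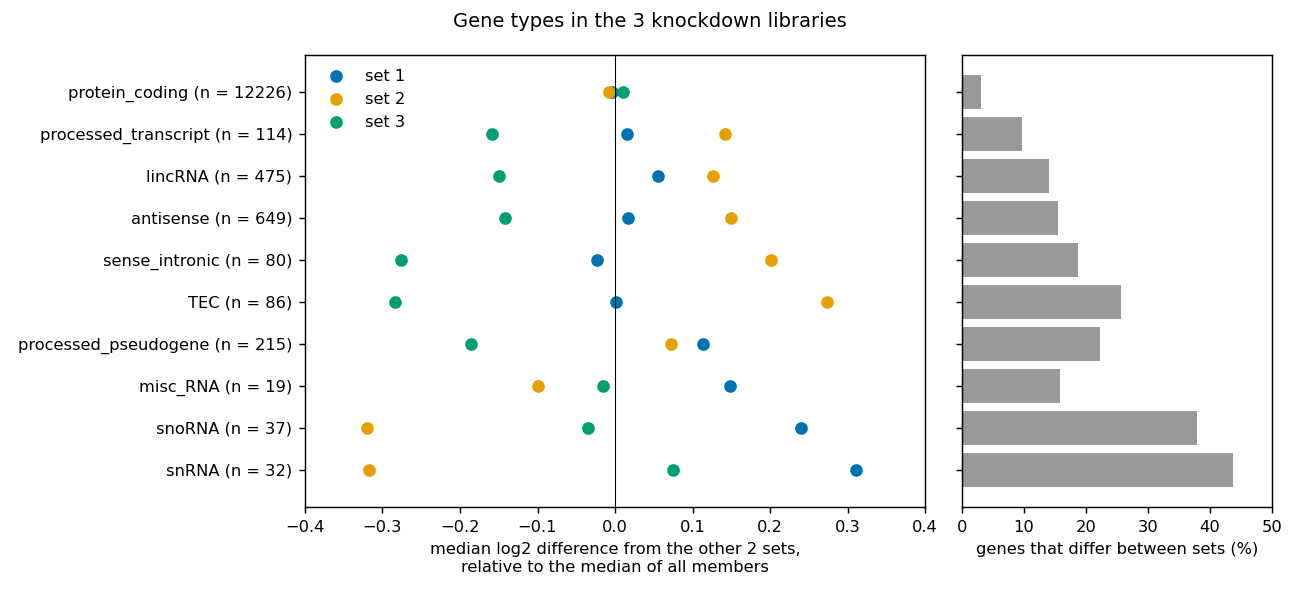
Left, median log2 difference of each set from the other 2, relative to the median of all genes, for 10 gene types with the number of genes in each. Right, percent of genes that differ between sets. Set 3 lies lowest and set 2 highest for antisense, intronic, intergenic and TEC genes, and set 2 lowest for snRNAs and snoRNAs.

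The noncoding genes named for set 3 overlapped coding genes that were not called. KCNH7-AS1 stood at 268.2, 310.1 and 114.5, while KCNH7, a potassium channel gene on the opposite strand, stood at 2443, 2236 and 2263. SLIT2-IT1, an intronic transcript, stood at 301.4, 383.9 and 149, while SLIT2, an axon guidance ligand, stood at 28469, 33014 and 28093. ENSG00000256564, antisense to LMO3, stood at 568.7, 672.2 and 264.6, while LMO3, a LIM-only transcriptional cofactor, stood at 34431, 30938 and 31266. HMGA2-AS1, named after its values were seen, stood at 1259, 1511 and 733.7, while the chromatin protein gene HMGA2 stood at 24587, 21432 and 23064. In each pair the noncoding gene was lowest in set 3.

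Over all 683 antisense, intronic, overlapping and TEC genes that overlap an examined protein-coding gene, the relative median in set 3 was -0.17, against -0.01 for the coding genes. The noncoding gene was lower than its partner on this scale in 468 pairs (68.52%), of which 375 of 559 were on opposite strands and 93 of 124 on the same strand. Of the noncoding genes 118 differed between sets, of the coding partners 14, and both in 3 pairs. Low protein-coding genes had a median of -0.11 in set 3 (mean of 50 to 100) and high ones 0.02 (mean of at least 500). Level thus moved with this result as with the share of calls, and its part in it was not tested. The library kit marks the strand, but the strand setting of the counting was not stated in the sources used here, so reads of a gene and its antisense partner may not have been told apart.

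**Figure D4:**
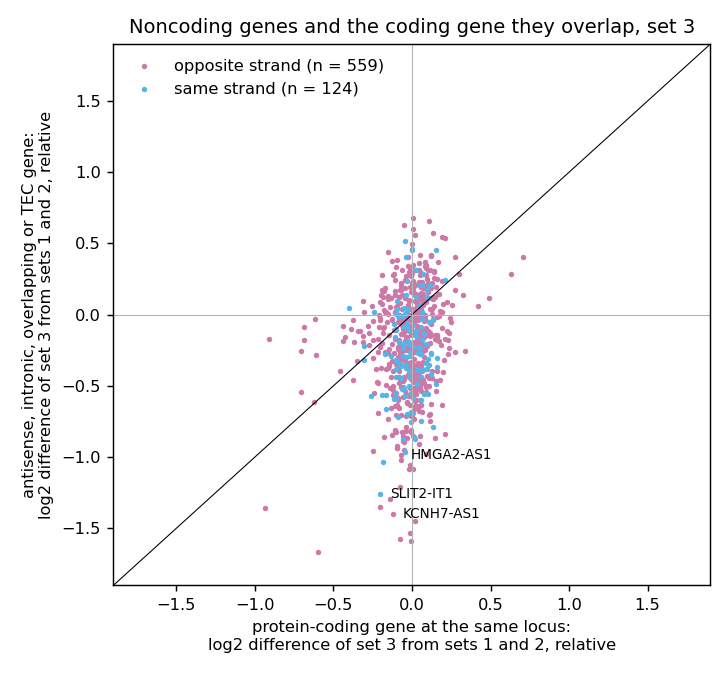
Each point is 1 of 683 noncoding genes that overlap a protein-coding gene. Both axes give the log2 difference of set 3 from the mean of sets 1 and 2, relative to the median of all genes, for the coding gene (horizontal) and the noncoding gene (vertical), and the diagonal marks equal values. Of the points, 468 lie below the diagonal.

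Processed pseudogenes, copies of spliced mRNAs put back into the genome, differed in 48 of 215 cases (22.33%), with relative medians of 0.11, 0.07 and -0.19. Their median level was 93.2 normalized counts. At a mean of 50 to 100, 16.7% of protein-coding genes and 19.55% of other types differed. Pseudogenes of ribosomal protein genes were counted after values were seen, and 16 of 60 differed (26.67%), at 0.21, -0.06 and -0.15. RPL26P19 stood at 208.5, 102.6 and 81.2, highest in set 1, and RPLP0P9 at 144.1, 108.8 and 37.8, lowest in set 3. Reads of such copies can come from the parent mRNA, of which none of 74 was called.

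The sets also differed slightly with GC content and exonic length. From the quintile of protein-coding genes with the lowest GC content (median 38.3%) to the highest (61.3%), the relative median went from 0.08 to -0.06 in set 1 and from -0.07 to 0.04 in set 2. From the shortest quintile (median 2274 bases) to the longest (10899 bases) it went from 0.04 to -0.03 in set 1 and from -0.06 to 0.04 in set 2. Set 3 stayed between -0.02 and 0.03 over all quintiles of both. With values corrected for both properties, 667 genes differed in place of 745, and 603 were called both ways (80.94% of the 745 and 90.4% of the 667). Relative medians per nuclear chromosome lay between -0.06 (chromosome 20, set 1) and 0.04 (chromosome 21, set 2). The 15 genes of the mitochondrial genome had relative medians of 0.11, -0.08 and -0.02.

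**Figure D5:**
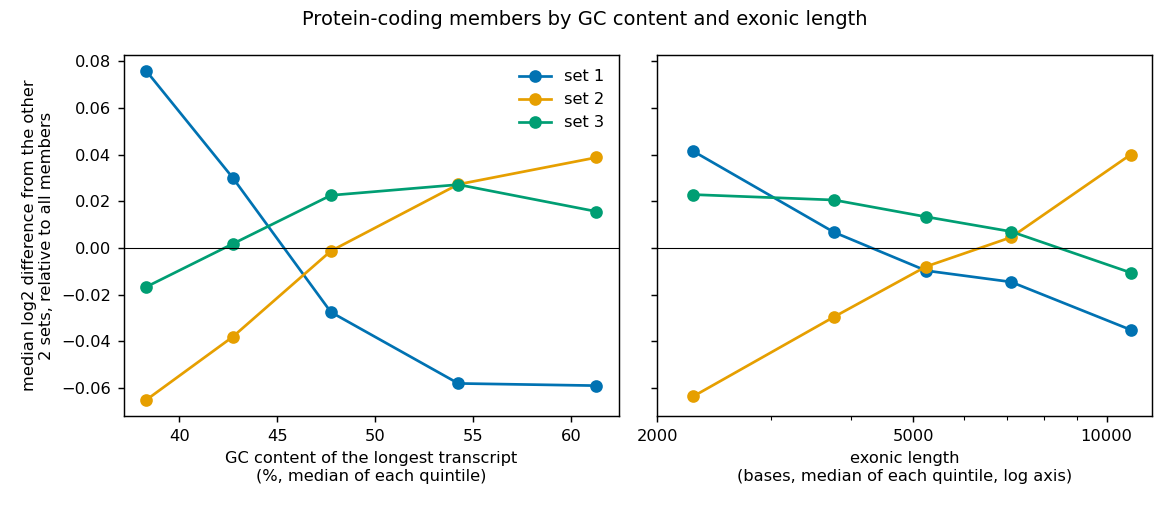
Median log2 difference of each set from the other 2, relative to all genes, over quintiles of protein-coding genes by GC content of the longest transcript (left, percent) and by exonic length (right, bases, log axis). Set 1 declines and set 2 climbs along both axes, from 0.08 to -0.06 and from -0.07 to 0.04 over GC content.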

How the data were processed

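Total RNA depleted of ribosomal RNA (KAPA RiboErase) was sequenced from 3 knockdown libraries and 1 wild-type library, with dUTP marking the second cDNA strand, per the labels' protocols. The submitters' processing notes name STAR 2.7.11b, DESeq2, featureCounts 2.0.6 and the build hg38. The order of steps, the annotation and the strand setting were not given in the sources used here for these files. The authors deposited a signal per gene, namely read counts after normalization. Within each library 100% of the values gave whole reads (tolerance 0.001 reads) after division by 1 step. The reads were thus recovered, with factors of 1.055, 1.287 and 0.8995 for sets 1, 2 and 3.

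Genes with a mean of at least 50 were kept. Ratios of reads, scaled by the factors, carry exact conditional binomial intervals at 99.9%. Intervals cover counting error only, since no molecular identifiers are described. A call needs a 1.5-fold difference and an interval that excludes 1. Relative medians are of log2(value + 1) of a set less the mean of the other 2 sets, less the median of all genes, which was -0.0045, -0.06 and 0.08 for sets 1, 2 and 3. They understate changes of low genes. No set has a replicate, so no count model was the basis of a call. edgeR 4.0.16 in R 4.3.3 gave TMM factors, and Python 3.11.15 with scipy 1.17.1 the rest. The calling script was tested on simulated data.

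Types, positions and lengths are from GENCODE 29 on GRCh38 (97.68% of genes matched, 335 not). Named genes are ANAPC1P2 and ANAPC1; per class, the 6 protein-coding and 3 other genes with the largest ratio to the nearest set at a mean of at least 200; called members with a mean of at least 100, up to 5, of lists with 3 called or 2 times the background share; and called markers of other cell types. Genes of lists given without a call, neighbours and overlapping partners were chosen with their values seen and stand beside them as values only. The genes, the 41 lists and the rules were chosen with earlier results of these data known. Alternatives were other scalings, level limits, folds and interval levels, thinned reads, each library left out, and GC and length correction. Some genes and sequences that the naming rule or a group would include are not reported here.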

Additional observations from a re-analysis of the deposited data

How the results depend on the processing

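No paired analysis was possible because each set is 1 library and the wild-type library enters no comparison. Of 113 alternative values of the counts and of the median excess variation, 55 lay within 1.5 times the value given and 58 moved further. With equal library totals, 99 genes were high and 13 low in set 2, and 15 were high and 136 low in set 3. With TMM scaling 14 were low in set 2. With a mean of at least 100, 439 genes differed, 23 were high and 13 low in set 2, and 12 were low in set 1. With a mean of at least 10, 1511 differed, 49, 103 and 46 were high and 48, 40 and 151 low in sets 1, 2 and 3. With a 95% interval, 47, 105 and 50 were high and 64, 50 and 193 low. With a fold of 2, 229 differed, 3, 4 and 5 were high and 7, 5 and 36 low. With the lowest fold limit tried, 2053 differed, 71, 115 and 139 were high and 93, 148 and 142 low. Among protein-coding genes 370 differed, 14 and 19 were high in sets 1 and 2, and 15 and 27 low in sets 2 and 3.

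Without 1 library, the genes that differed numbered 259 to 420 and those beyond counting noise 3794 to 5082. Those high numbered 111 to 182 in set 1, 148 to 303 in set 2 and 117 to 127 in set 3, and those low 127 to 148, 111 to 117 and 182 to 303, since with 2 libraries only 1 other set has to be passed. The changes with level limit, fold and interval level follow from how many genes could pass. The cause of those with scaling was not tested. Of the 745 genes, 638 to 684 (85.64% to 91.81%) were also called under the 3 other scalings, and 626 (84.03%) with reads thinned to equal totals. An edgeR test with Poisson variance gave 1042. Leaving out short RNA, an alternative chosen after seeing the data, left 711. Of 52 called named genes 7 lost their call under a scaling and 1 with GC and length correction, and 0 reversed. These losses concern the ratio of the highest over the lowest set. Whether a named gene stayed high or low in 1 set was not checked gene by gene. Relative medians do not depend on the scaling by construction, apart from the pseudocount. At 50 normalized counts, few reads limit a call to large ratios, so smaller differences of low genes were not detectable at this depth.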

Other observations

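Some genes below the level used for naming, chosen after their values were seen, stood apart in 1 set with few reads behind them. In set 3, IL10, an anti-inflammatory cytokine, stood at 88.2, 90.1 and 156.8 normalized counts in sets 1, 2 and 3. CD69, a lymphocyte activation marker, stood at 52.1, 26.4 and 96.7, and PIGR, the epithelial receptor that carries immunoglobulin A, at 70.1, 82.4 and 135.6. HPGD, which inactivates prostaglandins, stood at 142.2, 125.9 and 213.5, and SULF1, a sulfatase that edits heparan sulfate, at 125.1, 134.4 and 205.7. Set 3 was highest in each.

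In set 2, TNFAIP6, a hyaluronan-binding protein, stood at 106.2, 57.5 and 113.4, and GREM1, a BMP antagonist, at 202.8, 120.4 and 220.1. Set 2 was lowest in both. In set 3, GNRHR, the receptor for gonadotropin-releasing hormone, stood at 192.4, 194.3 and 107.8, and OMG, a myelin glycoprotein, at 176.3, 197.4 and 106.7. Set 3 was lowest in both.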
